A study of Mus musculus with 6 samples.

Results

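The genes described here encode 4 chemokine receptors (*Ccr1*, *Ccr2*, *Cx3cr1* and *Cxcr4*) and 4 integrin subunits (*Itga4*, *Itgal*, *Itgb1* and *Itgb2*) that serve the migration of myeloid cells. They were taken by name with no threshold on their values, although earlier results of these data were known, and make up 8 of the 24562 gene symbols in the count table. Where a gene had several RefSeq transcripts, it was represented by the one with the most reads in all, and 8 of 8 genes passed the filter on low counts that left 11470 genes for testing. RNA was sequenced from unstimulated (naive) bone marrow-derived macrophages (BMDMs) of mice that the series' design text gives as female (the study's methods name both sexes for its in vitro work), with 3 libraries from Cre-negative *Acly* fl/fl littermates, labelled AclyM-WT and called control here, and 3 from mice with myeloid deletion of *Acly*, labelled AclyM-KO. *Acly* encodes ATP citrate lyase, which makes cytosolic acetyl-CoA from citrate. In AclyM-KO mice, Cre is expressed from the *Lyz2* locus (LysM-Cre), which is active in myeloid cells, and both groups carry the floxed *Acly* alleles. Bone marrow cells of both groups were differentiated with L929-conditioned medium, and the comparison asks how the absence of Acly alters macrophage expression without a stimulus.

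Chemokine receptors are G protein-coupled receptors that steer leukocytes along gradients of small secreted proteins. Integrins are heterodimers of an α and a β subunit, which bind ligands on other cells or in the matrix after signals from such receptors have switched them to an active shape. In monocytes and macrophages, CCR2 and its ligand CCL2 serve the exit from bone marrow and entry into tissue, CXCR4 holds cells in the marrow through CXCL12, and the integrins α4β1 (VLA-4, from *Itga4* and *Itgb1*) and αLβ2 (LFA-1, from *Itgal* and *Itgb2*) bind VCAM-1 and ICAM-1 on endothelium.

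Total counts over all transcripts ranged from 19327459 to 44507233 per library, with AclyM-KO replicate 2 at 2.2 times the mean of the other 5 libraries. Counts of *Acly* fell by 1.25 on the log2 scale in AclyM-KO BMDMs (SE 0.066, edgeR adjusted p = 5.58e-07) and those of *Lyz2*, into which Cre is inserted, fell by 1.05 (SE 0.086, adjusted p = 2.21e-05), each without overlap between the groups. The macrophage markers *Adgre1* (F4/80) and *Cd68* were high in both groups, *Adgre1* at 505 RPKM in control and 532 in AclyM-KO libraries, and 4 of 9 macrophage markers (among them *Lyz2*, *Mertk* and *Csf1r*) were lower in AclyM-KO libraries. *Csf1r*, at -0.48 on the log2 scale, was at -0.30 without AclyM-KO replicate 2 and lost its call without AclyM-KO replicate 3 or any control library (adjusted p 0.0769 to 0.137). Where the study plotted these RNA data, it described the replicates as technical replicates from pooled mice. The p-values therefore measure the spread between these libraries and do not show the variation between mice. Fewer cells that express a gene and less RNA of it per cell cannot be told apart in bulk RNA.

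In AclyM-KO BMDMs, *Cxcr4*, *Itga4* and *Itgal* were lower than in control, and none of the 8 genes was higher. The other 5 genes did not pass the threshold of 0.05 on the adjusted p, and their values follow with their intervals. Across the 11470 genes tested, 12.3% passed this threshold in either direction, 5.65% as lower and 6.7% as higher in AclyM-KO. The median log2 fold change of the 8 genes was -0.31, against 0.00026 over all genes tested, whose 5th and 95th percentiles were -0.47 and 0.58. Groups of 3 libraries that do not overlap were found for 32.8% of the genes tested (16.6% with AclyM-KO lower, 16.3% with it higher), and for 3 of the 8 genes here, the same 3 that passed the threshold.

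Promoters are shown for *Cxcr4* and *Itga4*, which were lower in the same comparison, and for *Itgb1*, whose product pairs with that of *Itga4* and which did not pass the threshold. Each sequence is the 250 bases before the gene's start in RefSeq (build GRCm38.p6), 5′ to 3′ on the gene's own strand, and capitals mark matches to the GC box letters GGGCGG or to the ETS core letters GAGGAA on either strand, so that a GC box on the opposite strand reads CCGCCC. The *Cxcr4* promoter lies at chr1:128592300-128592549 on the minus strand, that of *Itga4* at chr2:79255176-79255425 on the plus strand and that of *Itgb1* at chr8:128685404-128685653 on the plus strand.
Cxcr4: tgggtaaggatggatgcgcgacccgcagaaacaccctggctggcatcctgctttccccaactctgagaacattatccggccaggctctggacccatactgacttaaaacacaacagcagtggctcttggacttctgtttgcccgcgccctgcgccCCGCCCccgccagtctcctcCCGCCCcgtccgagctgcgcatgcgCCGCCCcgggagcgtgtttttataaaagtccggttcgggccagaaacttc
Itga4: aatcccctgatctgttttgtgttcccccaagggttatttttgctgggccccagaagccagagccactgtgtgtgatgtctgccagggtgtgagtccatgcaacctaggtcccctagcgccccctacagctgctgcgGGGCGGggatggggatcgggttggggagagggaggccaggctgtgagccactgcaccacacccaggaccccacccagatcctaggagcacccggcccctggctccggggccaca
Itgb1: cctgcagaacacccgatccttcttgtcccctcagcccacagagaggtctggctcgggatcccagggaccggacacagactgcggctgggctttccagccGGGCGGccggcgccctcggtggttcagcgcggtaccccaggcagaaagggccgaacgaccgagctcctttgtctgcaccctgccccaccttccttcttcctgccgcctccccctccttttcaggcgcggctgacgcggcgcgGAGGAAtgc
The *Cxcr4* window held 3 GC boxes on the opposite strand, and those of *Itga4* and *Itgb1* held 1 each. The ETS core, a short motif bound by the myeloid factor PU.1 among others, was found once in the *Itgb1* window, 9 to 4 bases before the start (-9 to -4), and in neither of the other two shown. Among 27025 promoters of this length, 32.9% held GGGCGG and 23.1% held GAGGAA. The E-box CACGTG (6.05% of promoters) and the DR4 element of the sterol-sensing LXR receptors, a direct repeat of AGGTCA with any 4 bases between (0.0111%, 3 promoters), were searched as well and matched none of the 6 member promoters found in the RefSeq table, which lacked *Itgal* and *Itgb2*. The motifs searched do not overlap in these windows. The GC content was 61.2% for *Cxcr4*, 64% for *Itga4* and 68% for *Itgb1*, against a median of 52% over all promoters, and 43.6%, 37.2% and 53.6% for *Ccr1*, *Ccr2* and *Cx3cr1*. The *Ccr2* window, chr9:124101933-124102182 on the plus strand, lies within that gene's coordinates (chr9:124101918-124109140) and not before them. Such matches describe letters in a window and were not linked to binding.

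Levels per transcript length were expressed as RPKM, counts scaled by transcript length in kilobases and by normalized library size. The β subunits were the highest of the 8 genes, with means in control of 280 ± 6.30 RPKM for *Itgb2* and 230 ± 8.95 for *Itgb1* (SD, n = 3). They exceeded 98.8% and 98.5% of the genes tested. *Cxcr4* followed with 110 ± 7.08, *Itga4* with 43.0 ± 2.41 and *Ccr1* with 30.1 ± 3.29. *Itgal*, *Ccr2* and *Cx3cr1* closed the order with 4.89 ± 0.835, 4.18 ± 0.602 and 0.281 ± 0.153, and *Cx3cr1* exceeded 2.07% of the genes tested. The ranges of *Itgal* and *Ccr2* overlapped in both groups, and these genes changed places in AclyM-KO. All other neighbours in the order were separated within each group.

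**Figure D1:**
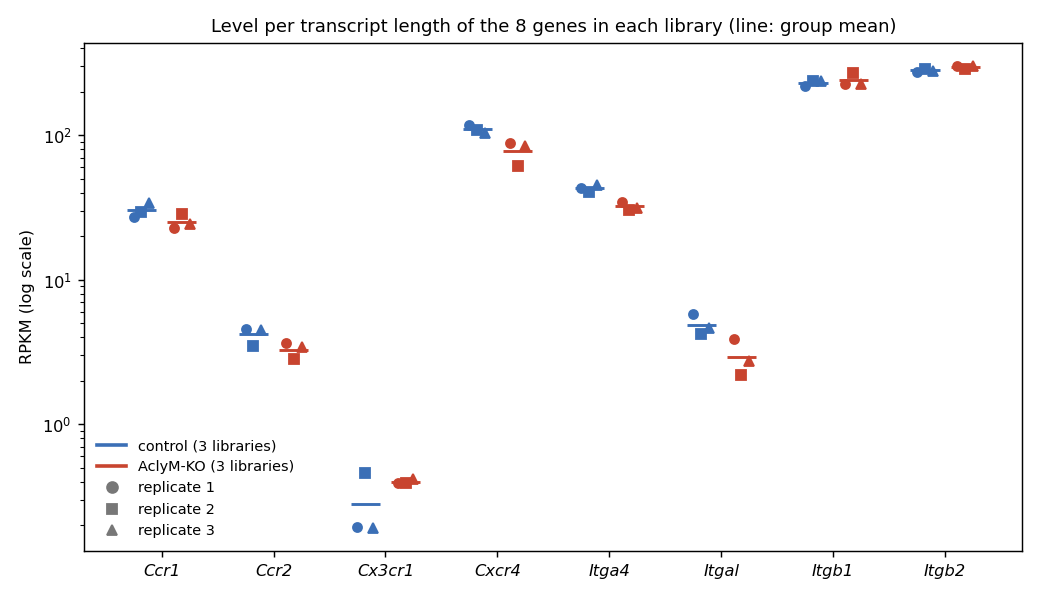
Level of each of the 8 genes in RPKM on a log axis, with 1 point per library (shape gives the replicate number) and a line at the mean of the 3 libraries, control in blue and AclyM-KO in red. *Itgb2* and *Itgb1* lie above 200 RPKM in the plot and *Cx3cr1* below 1, and *Cxcr4*, *Itga4* and *Itgal* are the genes whose groups are separated.

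Among the receptors, *Cxcr4* (chr1:128588199-128592299) was the most highly expressed. Its level was 118, 108 and 104 RPKM in control replicates 1, 2 and 3 and 87.7, 61.0 and 83.5 in AclyM-KO replicates 1, 2 and 3. The groups did not overlap, and AclyM-KO replicate 2 was the lowest library. The fold change on the log2 scale was -0.51 (SE 0.117, 95% interval -0.77 to -0.26, edgeR adjusted p = 0.0158), so *Cxcr4* fell by 29.9%. Leaving out control replicate 1 gave -0.46 (adjusted p = 0.0801), and leaving out control replicate 2 gave -0.52 (adjusted p = 0.0551). Without the low AclyM-KO replicate 2 it was -0.36 with an adjusted p of 0.000259.

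*Ccr1* (chr9:123962126-123968692) encodes a receptor for CCL3, CCL5 and related chemokines. Its level was 27.3, 29.4 and 33.7 RPKM in the control libraries and 22.6, 28.5 and 24.3 in the AclyM-KO libraries. AclyM-KO replicate 2 lay within the control range and the other two lay below it. The log2 fold change was -0.25 (SE 0.102, 95% interval -0.48 to -0.03, adjusted p = 0.134), which did not pass the threshold. Without AclyM-KO replicate 2 it was -0.36 with an adjusted p of 0.00393, and limma-voom with sample weights gave -0.32 with an adjusted p of 0.0109.

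*Ccr2* (chr9:124101918-124109140), the receptor of CCL2, CCL7 and CCL12, was read with 150, 140 and 150 counts in control and 125, 225 and 117 in AclyM-KO libraries. Scaled for depth and length, these were 4.55, 3.49 and 4.51 RPKM in control and 3.63, 2.83 and 3.40 in AclyM-KO. Control replicate 2 lay among the AclyM-KO libraries, so the groups overlapped. The log2 fold change of -0.36 (SE 0.153, 95% interval -0.69 to -0.03) had an adjusted p of 0.152 with edgeR, and 0 of 17 alternative settings brought it past the threshold. It was -0.24 without AclyM-KO replicate 2 and -0.48 without control replicate 2.

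*Cx3cr1* (chr9:120048683-120068296), the receptor of fractalkine and a marker of resident and patrolling mononuclear phagocytes, was close to the lower limit of the data. Its counts were 8, 23 and 8 in control and 17, 39 and 18 in AclyM-KO libraries. Control replicate 2 had the highest level of the 6 libraries, at 0.458 RPKM, while the other control libraries had 0.194 and 0.192 and the AclyM-KO libraries 0.394, 0.393 and 0.418. *Cx3cr1* differed by 0.46 on the log2 scale with a 95% interval from -0.33 to 1.25 (SE 0.360, adjusted p = 0.451), and at this depth no difference was detectable. It was 0.26, 1.04 and 0.25 without control replicates 1, 2 and 3, and did not pass in any of these (adjusted p 0.145 to 0.779). The exons of *Cx3cr1* share 78 of 4505 bases with *Gm33858* on the other strand, and the strand option of the counting, which ran at the tool's default settings, is not named.

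Of the α subunits, *Itga4* (chr2:79255426-79333114) encodes the α4 chain of VLA-4 and of α4β7. Its level was 42.8, 40.7 and 45.5 RPKM in control and 34.7, 30.4 and 31.3 in AclyM-KO libraries. The lowest control library lay above the highest AclyM-KO library. The log2 fold change was -0.42 (SE 0.073, 95% interval -0.58 to -0.26, adjusted p = 0.00391), a decrease in which *Itga4* fell by 25.3%. In 17 of 17 alternative settings it stayed past the threshold, with log2 fold changes from -0.48 to -0.38. Its exons share 1124 of 13978 bases with *Cerkl* on the opposite strand, which had 59 to 136 counts per library.

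*Itgal* (chr7:127296139-127335137) encodes the αL chain of LFA-1. Its level was 5.83, 4.24 and 4.61 RPKM in control and 3.90, 2.18 and 2.74 in AclyM-KO libraries. Although the groups did not overlap, the gap between control replicate 2 and AclyM-KO replicate 1 was small beside the range within each group. *Itgal* had the largest decrease of the 8 genes, with a log2 fold change of -0.76 (SE 0.192, 95% interval -1.18 to -0.34, adjusted p = 0.0242), and fell by 41.1%. The adjusted p was 0.120 without control replicate 1 (log2 fold change -0.62), 0.0687 without control replicate 3 (-0.80) and 0.0726 without AclyM-KO replicate 3 (-0.73).

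The β subunits *Itgb1* (chr8:128685654-128733579) and *Itgb2* (chr10:77530329-77565708) encode the common partners of the VLA integrins and of the leukocyte integrins LFA-1, Mac-1 and CD11c/CD18. *Itgb1* was at 220, 235 and 235 RPKM in control and 225, 270 and 225 in AclyM-KO libraries. *Itgb2* was at 275, 287 and 279 RPKM in control and 300, 287 and 302 in AclyM-KO libraries. For both genes the groups overlapped. The log2 fold change of *Itgb1* was 0.06 (SE 0.080, 95% interval -0.11 to 0.24, adjusted p = 0.680) and that of *Itgb2* was 0.08 (SE 0.061, 95% interval -0.05 to 0.21, adjusted p = 0.441). The intervals leave room for decreases to 0.924 and 0.964 times the control level. The sign for *Itgb1* turned without AclyM-KO replicate 2 (-0.03) and with limma-voom (-0.01).

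**Figure D2:**
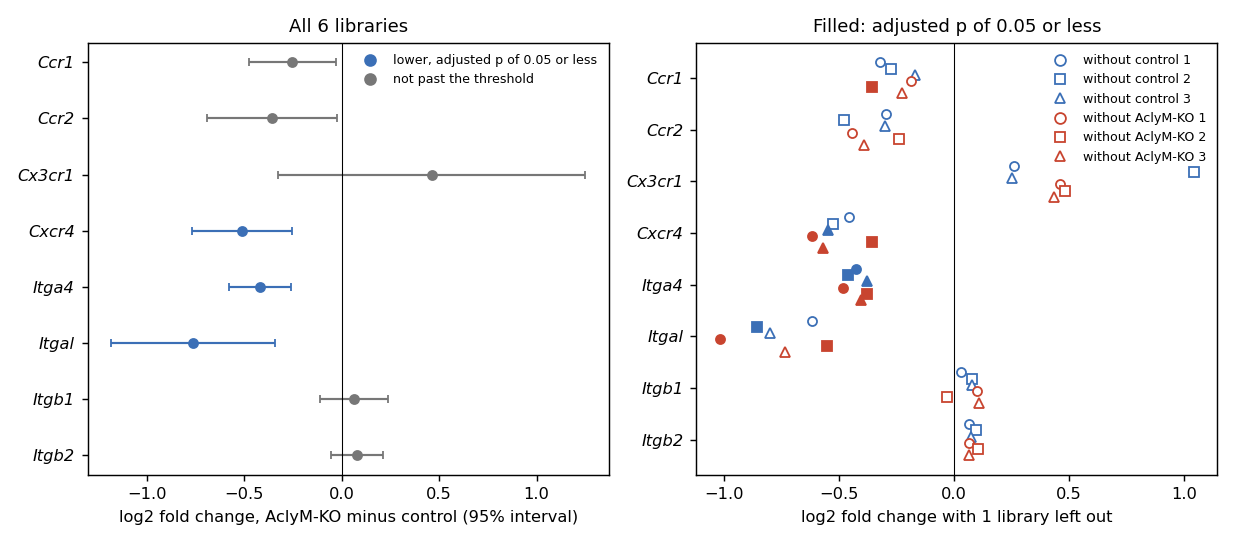
Left, log2 fold change of each gene in AclyM-KO against control with its 95% interval, in blue where lower with an adjusted p of 0.05 or less and in grey otherwise. Right, the same fold change with 1 of the 6 libraries left out, filled where past the threshold. *Itga4* is filled in 6 of 6 cases, whereas *Cxcr4* and *Itgal* each have open points.

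Since 2 of the lower genes encode α chains whose β partners did not pass the threshold, the ratio of partners was computed within each library. The ratio of *Itga4* to *Itgb1* in RPKM was 0.195, 0.173 and 0.193 in control and 0.154, 0.112 and 0.139 in AclyM-KO libraries. That of *Itgal* to *Itgb2* was 0.0212, 0.0147 and 0.0166 in control and 0.0130, 0.00759 and 0.00907 in AclyM-KO libraries. Neither ratio overlapped between the groups. The log2 ratio differed by -0.48 for *Itga4*/*Itgb1* and by -0.84 for *Itgal*/*Itgb2*. In two-sided exact permutation tests each gave p = 0.10, the smallest that 3 libraries against 3 allow, and 0.2 after Benjamini-Hochberg adjustment over the 4 ratios tested.

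For the receptors, the ratio of *Ccr2* to *Cx3cr1* was 23.5, 7.62 and 23.5 in control and 9.20, 7.22 and 8.13 in AclyM-KO libraries, a log2 difference of -0.99 with an exact permutation p of 0.3 (adjusted 0.4). Control replicate 2 lay among the AclyM-KO libraries, and the difference was -1.53 without it and -0.71 without either other control library. The ratio of *Ccr1* to *Ccr2* was 5.999, 8.42 and 7.47 in control and 6.23, 10.1 and 7.15 in AclyM-KO libraries. Its groups overlapped (log2 difference 0.08, exact permutation p = 0.9, adjusted 0.9).

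**Figure D3:**
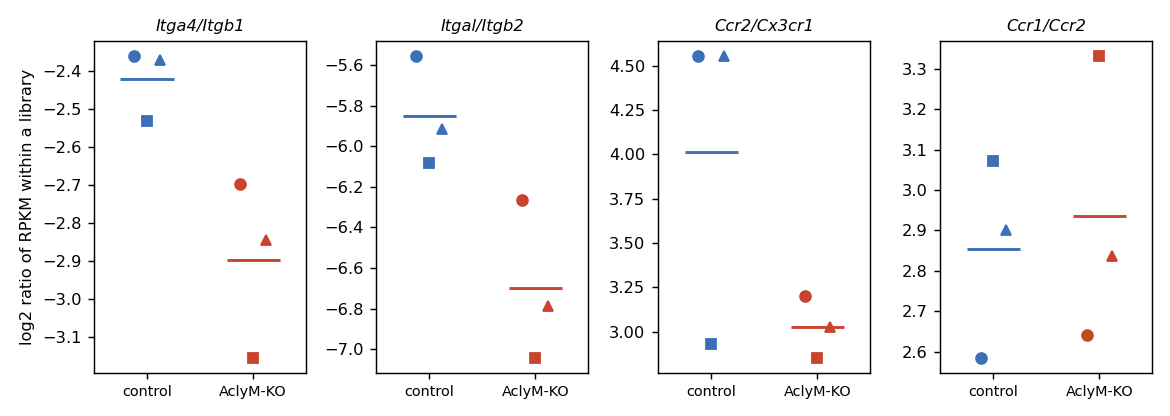
Log2 ratio of RPKM within each library for 4 pairs of genes, with 1 point per library (shape gives the replicate number) and a line at the group mean. The y axes differ between panels. The groups are separated for *Itga4*/*Itgb1* and *Itgal*/*Itgb2* and overlap for *Ccr2*/*Cx3cr1* and *Ccr1*/*Ccr2*.

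The patterns over the 6 libraries most like those of the 3 lower genes were sought by the root-mean-square difference between log2 profiles centred on their own mean. For *Cxcr4* these were *Selenop* (0.032), *Tifab* (0.032) and *Pou6f1* (0.034). The profile of *Itga4* was matched by *Kctd12* (0.010), *Lrp6* (0.029) and *Ankrd44* (0.031). *Itgal* was less closely matched, by *Pik3ip1* (0.048), *F13a1* (0.104) and *Fcgrt* (0.113).

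Of 20 other chemokine receptors, 5 were tested, 1 was higher and 0 were lower (median log2 fold change -0.26), while 4 had no counts in any library. *Ccr3*, the eotaxin receptor, lies between *Ccr1* and *Ccr2* on chromosome 9. It had 6.36, 7.42 and 8.30 RPKM in control and 8.43, 14.1 and 10.1 in AclyM-KO libraries, with AclyM-KO replicate 2 the highest. Its log2 fold change was 0.58 (SE 0.170, adjusted p = 0.0456). *Ccrl2* was at -0.31 (adjusted p = 0.175), and *Ackr3*, the other receptor of CXCL12, had no counts in any library. *Ccr3* lost its call without each control library in turn and without AclyM-KO replicate 3 (adjusted p 0.0672 to 0.179), and with all transcripts of a gene summed (0.0629), and its log2 fold change was 0.33 without AclyM-KO replicate 2.

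Ligands of the receptors and integrins were higher more often than lower: of 15 listed, 14 were tested, 6 were higher and 0 lower. Their median was 0.48 on the log2 scale. *Ccl12*, a CCR2 ligand, had 29, 29 and 36 counts in control and 58, 410 and 74 in AclyM-KO libraries, and a log2 fold change of 1.84 (SE 0.393, adjusted p = 0.0110). *Ccl2*, the main CCR2 ligand, rose by 0.96 on the log2 scale (SE 0.226, adjusted p = 0.0178), from 56.1 to 108 RPKM. The CCR1 ligands *Ccl9* and *Ccl3* rose by 0.77 (adjusted p = 0.00196) and 0.46 (adjusted p = 0.0161). *Ccl5* and *Ccl6*, also CCR1 ligands, did not pass, at -0.54 with AclyM-KO libraries below control (SE 0.213, adjusted p = 0.126) and 0.10 (adjusted p = 0.412). Of the integrin ligands, *Fn1* (fibronectin) rose by 1.02 from a low level of 0.194 RPKM (adjusted p = 0.0345), and *Spp1* (osteopontin), the ligand with the highest level, rose by 0.34 (adjusted p = 0.0358). AclyM-KO replicate 2 was the highest library in RPKM for each of the 6 higher ligands, with 410 counts of *Ccl12* and 3478 of *Ccl2* at its greater depth. Leaving it out gave log2 fold changes of 1.11 for *Ccl12*, 0.52 for *Ccl2* and 0.22 for *Spp1*, which were still past the threshold. *Ccl2* did not pass with DESeq2 (adjusted p = 0.0605), and *Ccl12* did not pass without control replicate 2 (adjusted p = 0.0613).

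*Ccl7*, also a CCR2 ligand, had a log2 fold change of 0.82 that missed the threshold (adjusted p = 0.0641). It passed in 6 of 16 alternative settings, among them that without AclyM-KO replicate 2, which gave 0.28 (adjusted p = 0.0360). *Vcam1*, the counter-receptor of VLA-4, also missed the threshold (0.68, adjusted p = 0.0754). *Cx3cl1*, which encodes fractalkine, had 0.50 (adjusted p = 0.355) and *Icam1*, the counter-receptor of LFA-1, -0.15 (adjusted p = 0.382), with -0.23 without AclyM-KO replicate 1 and -0.02 without AclyM-KO replicate 2. *Cxcl12*, the ligand of CXCR4, had 12 counts over the 6 libraries and was not tested. The number of ligands past the threshold was 2 without each control library in turn, and *Fn1* lost its call without AclyM-KO replicate 2 (adjusted p = 0.104) and with DESeq2 (0.0687), as did *Spp1* without AclyM-KO replicate 3 (0.0520).

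**Figure D4:**
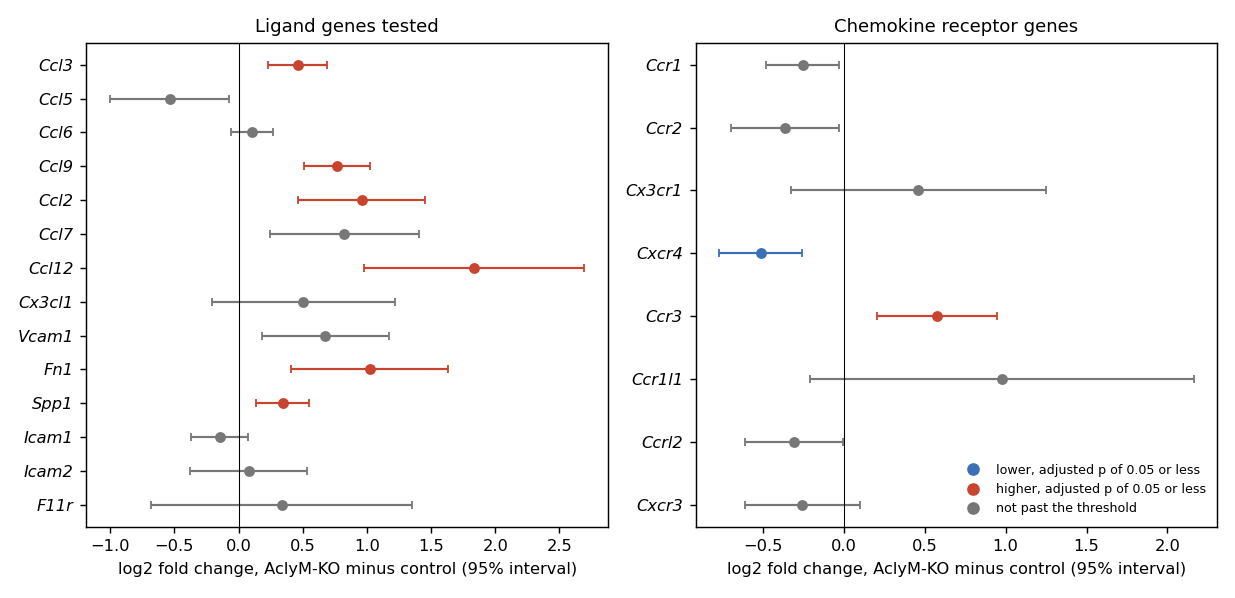
Log2 fold change in AclyM-KO against control with its 95% interval for the ligand genes tested (left) and for 8 chemokine receptor genes (right), red where higher and blue where lower with an adjusted p of 0.05 or less, and grey otherwise. *Ccl12* lies furthest to the right among the ligands at 1.84, and *Cxcr4* is the receptor gene marked as lower.

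Among 22 other integrin subunits, 10 were tested, 3 were higher and 2 lower (median 0.04). *Itga9*, an α partner of β1, fell by 1.29 on the log2 scale, from 1.71 to 0.701 RPKM (SE 0.153, adjusted p = 0.000382). *Itgb5*, which pairs with αv, fell by 0.33 (adjusted p = 0.0356). *Itgb3*, the β chain of the αvβ3 vitronectin receptor, rose by 0.78, from 12.7 to 21.7 RPKM (SE 0.090, adjusted p = 0.000309). *Itgb7*, the other partner of α4, rose by 0.43 (adjusted p = 0.0393), and *Itga8*, at 0.255 RPKM in control, rose by 1.51 (adjusted p = 0.00771). The number past the threshold was 3, 2 and 3 without control replicates 1, 2 and 3. *Itgb5* and *Itgb7* lost their calls in each of these settings (adjusted p 0.0973 to 0.173), and *Itgb7* also with all transcripts of a gene summed (0.0526). *Itgb5* was at -0.22 without AclyM-KO replicate 2 and did not pass without AclyM-KO replicate 3 (adjusted p = 0.0548).

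Of the other partners of the β chains that were tested, *Itgam*, *Itgax*, *Itga5*, *Itga6* and *Itgav* did not pass the threshold. *Itgam*, the α chain of Mac-1 with β2 and the other integrin subunit with the highest level, had 184 RPKM in both groups and a log2 fold change of 0.00 (95% interval -0.15 to 0.15, adjusted p = 0.993). *Itgax*, the α chain of CD11c/CD18, had 0.53 without overlap between the groups (adjusted p = 0.0629), and passed in 4 of 16 alternative settings, DESeq2 among them (adjusted p = 0.0345) and that without AclyM-KO replicate 3 (0.0467), while it was 0.32 without AclyM-KO replicate 2. The β1 partners *Itga5* and *Itga6* had 0.07 (adjusted p = 0.595) and 0.01 (adjusted p = 0.931), and *Itgav* had -0.21 (adjusted p = 0.128). *Itgav* passed without AclyM-KO replicate 2 (-0.27, adjusted p = 0.00816) and with limma-voom (-0.26, adjusted p = 0.0135).

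**Figure D5:**
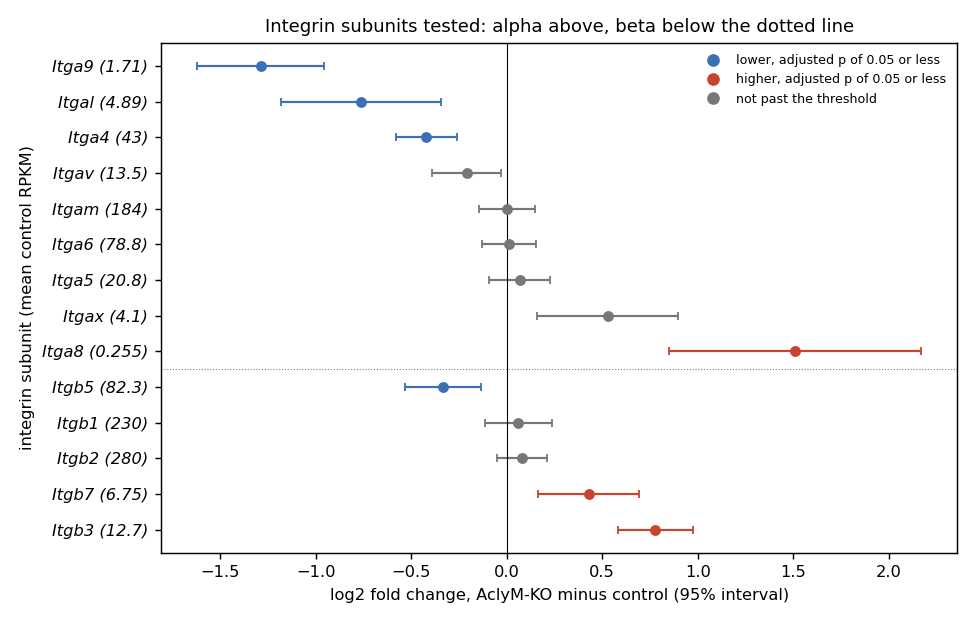
Log2 fold change in AclyM-KO against control with its 95% interval for the 14 integrin subunits tested, α subunits above and β subunits below the dotted line, with the mean control level in RPKM after each name. Blue marks lower and red higher with an adjusted p of 0.05 or less. The α subunits run from -1.29 for *Itga9* to 1.51 for *Itga8*, while the abundant *Itgb2*, *Itgb1* and *Itgam* lie near 0.

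Of 25 genes that activate integrins or link them to actin, 21 were tested, 3 were higher and 1 lower (median 0.04). *Ptk2*, which encodes focal adhesion kinase, rose by 1.004 (SE 0.140, adjusted p = 0.00125), with 83, 102 and 92 counts in control and 167, 476 and 161 in AclyM-KO libraries. The actin-linking genes *Vcl* (vinculin) and *Flna* (filamin A) rose by 0.38 (adjusted p = 0.0467) and 0.32 (adjusted p = 0.0479), and *Parvg* (γ-parvin) fell by 0.23 (adjusted p = 0.0445). *Rap1b*, the small GTPase with the highest level of this list, had 0.07 (adjusted p = 0.587). The number past the threshold was 1 without each control library in turn, and *Parvg* passed in 6 of 16 alternative settings. *Vcl* was at 0.23 without AclyM-KO replicate 2, and *Flna* did not pass without AclyM-KO replicate 1 (adjusted p = 0.0591).

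Chemokine receptor signalling genes were tested in 27 of 27 cases, with 3 higher and 2 lower (median 0.10). Those that passed were regulators of receptor signalling. *Rgs16*, *Rgs2* and *Rgs14*, which speed the shut-off of G proteins, rose by 1.203 (adjusted p = 0.0365), 0.66 (adjusted p = 0.0228) and 0.63 (adjusted p = 0.00268). *Rgs10*, of the same family, fell by 0.28 (adjusted p = 0.0208), and *Grk3*, a kinase that desensitizes receptors, fell by 0.68 (SE 0.135, adjusted p = 0.00762). *Gnai2*, the main inhibitory Gα subunit of leukocytes, and the small GTPase *Cdc42*, the highest of the list, had 0.03 (adjusted p = 0.808) and 0.15 (adjusted p = 0.187). Without control replicates 1, 2 and 3, the number past the threshold was 2, 3 and 3. *Rgs2* was at 0.37 without AclyM-KO replicate 2 and did not pass with DESeq2 (adjusted p = 0.0921), and *Rgs16* did not pass without AclyM-KO replicate 2 (adjusted p = 0.0682), nor *Rgs10* without AclyM-KO replicate 3 (0.0540).

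Among 10 other surface proteins of leukocyte homing, 8 were tested, 2 were higher and 0 lower (median -0.0023). *Alcam*, an adhesion molecule of the immunoglobulin superfamily, rose by 0.50 (SE 0.097, adjusted p = 0.00706). *Cd9*, a tetraspanin that associates with integrins and the highest of this list, had 0.10 (adjusted p = 0.419). Without control replicate 1 or 2, the number past the threshold was 1.

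Summed levels of several marker lists differed between the groups. The summed level of 9 macrophage markers was 21876 to 22847 CPM (counts scaled by normalized library size alone) in control and 12806 to 15430 in AclyM-KO libraries, a difference carried mostly by *Lyz2*, the site of the Cre insertion, at 13305 CPM in control and 6437 in AclyM-KO. *Adgre1*, *Cd68*, *Itgam*, *Cd14* and *Fcgr1* did not pass the threshold. For 8 monocyte markers it was 43.9 to 58.0 CPM in control and 35.8 to 43.5 in AclyM-KO, and for 8 dendritic cell markers 29.3 to 39.4 and 20.3 to 23.2, mostly *Clec10a*, the 1 gene of that list tested (33.4 and 19.9 CPM). For 12 neutrophil markers it was 50.6 to 53.3 CPM in control and 74.9 to 80.4 in AclyM-KO, a difference carried by *Mmp8*, which was at 20.7 CPM in control and 47.5 in AclyM-KO (log2 fold change 1.201, adjusted p = 1.75e-05). The other 4 neutrophil markers tested did not pass, with *S100a8* at -0.20, *S100a9* at 0.15, *Ngp* at -0.11 and *Ltf* at 0.31. Proliferation markers summed to 440 to 517 CPM in control and 625 to 892 in AclyM-KO libraries, the highest value being that of replicate 2, and 9 of 10 were higher. The part of these differences in the values of *Cxcr4*, *Itga4* and *Itgal* was not tested. For 5 B cell markers the sums were 3.43 to 4.48 and 2.34 to 3.83 CPM, for 7 T and NK cell markers 0.149 to 0.364 and 0.264 to 0.435, and for 6 stromal markers 0 to 0.224 and 0 to 0.302. For 5 endothelial markers they were 11.5 to 13.004 and 10.2 to 13.1, and for 7 erythroid and platelet markers 90.8 to 106.7 and 116 to 146, nearly all of it *Pf4*, the 1 gene of that list tested, which was higher (100.7 and 128.9 CPM, adjusted p = 0.0295). Among the markers in these lists, *Pax5*, *Cd3e*, *Cd3g*, *Gzma*, *Col3a1*, *Lum*, *Pdgfra* and *Emcn* had no counts in any library.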

How the data were processed

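The 3 control and 3 AclyM-KO libraries of unstimulated BMDMs were made with the KAPA HyperPrep mRNA kit. The submitters' processing notes name CASAVA 1.8.2, STAR 2.5.2b and the build mm10. The authors kept well-mapped alignments, used HOMER2 at default settings to sum raw counts for each RefSeq transcript, and deposited them as counts, neither normalized nor pooled. Libraries were strand-specific, but the strand option of the counting is not named beyond these defaults, and the RefSeq release is not given in the sources used here. The table holds 35745 transcripts, and 6 further columns were not used. Total counts ranged from 19327459 to 44507233, which limits the precision for genes such as *Cx3cr1*.

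For each gene the transcript with the highest total was kept. Groups came from the sample labels. The test was edgeR 4.0.16 under R 4.3.3 (TMM, filterByExpr, quasi-likelihood test, Benjamini-Hochberg adjustment over 11470 genes, threshold 0.05), with genotype as the factor. CPM and RPKM were computed from TMM-scaled totals over 1 transcript per gene, with transcript lengths from GENCODE M21 and coordinates and promoters from RefSeq (GRCm38.p6). The 4 ratios were compared by exact permutation tests (SciPy 1.17.1). Alternatives were DESeq2 1.42.0, limma-voom (limma 3.58.1), other scalings, filters, row choices and thresholds, a replicate block, a thinned AclyM-KO replicate 2 and each library left out. On simulated counts with 200 of 11369 genes changed by 1 on the log2 scale, edgeR recovered 89.5%.

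The genes and lists were chosen with earlier results of these data known. Named are the 8 genes, and from each list up to 4 genes past the threshold in each direction with the largest change and the gene with the highest RPKM, besides direct partners and neighbours of the 8 genes, the 3 genes with the closest pattern to each lower gene, and markers. The ligands *Ccl3*, *Ccl5* and *Ccl6*, outside this rule, were named after their values were seen. Stimulated macrophages and plaques were not analysed here. Some named items are withheld and not reported here, but stay in the counts of their lists.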

Additional observations from a re-analysis of the deposited data

How the results depend on the processing

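The number of genes past the threshold, 1416 of 11470 tested (768 higher, 648 lower), was 1427 (919 higher, 508 lower) with total counts only and 2187 with limma-voom. It was 557 at a threshold of 0.01 and 598 to 2136 with 1 library left out. With every transcript as a feature, 2446 of 18933 transcripts tested passed. The 3 lower genes of the 8 were 1 at a threshold of 0.01, where *Cxcr4* (-0.51) and *Itgal* (-0.76) did not pass, and 1 to 4 with 1 library left out. Leaving out 1 library gave -0.62 to -0.36 for *Cxcr4*, -1.02 to -0.55 for *Itgal*, -0.36 to -0.17 for *Ccr1* and -0.0312 to 0.106 for *Itgb1*. limma-voom gave -0.32 for *Ccr1*, which then passed, and -0.0132 for *Itgb1*. The cause of these shifts was not tested. The filter of at least 10 counts in every library removed *Cx3cr1*.

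Signs turned for *Itgam* (DESeq2 -0.0017, no filter -0.0034, limma-voom -0.0325, thinned AclyM-KO replicate 2 -0.00039, -0.0442 to 0.0283 with 1 library left out), *Itga6* (limma-voom -0.0191, -0.0187 to 0.0435 with 1 library left out), *Rap1b* (-0.00952 to 0.113, the former without AclyM-KO replicate 2), *Gnai2* (-0.0317 to 0.0938, the former without AclyM-KO replicate 3) and the log2 difference of *Ccr1*/*Ccr2* (-0.114 to 0.231, below 0 without control replicate 1 and without AclyM-KO replicate 2). Scaled by the total over all transcripts, mean RPKM over 6 libraries was 15.9 for *Ccr1*, 2.15 for *Ccr2*, 0.197 for *Cx3cr1*, 53.8 for *Cxcr4*, 21.6 for *Itga4*, 2.25 for *Itgal*, 135.7 for *Itgb1* and 166.2 for *Itgb2*.

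The replicate numbers shared by the groups were not used as pairs in the main test. Deviations of same-numbered libraries correlated at 0.09, 0.114 and -0.0466, against -0.132 to 0.0699 for libraries of unlike number. Not every library correlated best with its own number. With 3 libraries per group, these values cannot decide whether the libraries were paired. The replicate block gave 1583 genes past the threshold, against 1416 in the main fit, and left the calls of the 8 genes as they were.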
